A study of Homo sapiens with 3 samples.

Results

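De novo ceramide synthesis was followed through 120 guides against 12 genes of a pooled CRISPR knockout library, out of 30197 guides listed. The members were the guides whose target symbol begins with SPTLC, CERS, LASS or DEGS or is KDSR, a rule on gene names that uses no measured value. It found SPTLC1, SPTLC2, SPTLC3, KDSR, CERS1 to CERS6, DEGS1 and DEGS2, each with 10 guides. Of these guides 112 reached 100 counts in the initial population and were scored, and every gene kept at least 8. The files name guides without their sequences, so target sites were not analysed here.

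The cells were MIA PaCa-2, an established line from a human pancreatic ductal adenocarcinoma, carrying a library of knockouts in metabolic genes. They were harvested after 14 days with apilimod (labelled 200 nM), after 14 days with the solvent DMSO, or untreated at day 0 as the initial population. The study's methods give another apilimod concentration for the 14-day arm, so the dose is uncertain. Each group was 1 pool of cells and 1 library, all 3 came from 1 transduced and selected population, and no difference below has a replicate check.

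Ceramide is the backbone of sphingomyelin and the glycosphingolipids. Cells build it at the endoplasmic reticulum, where serine palmitoyltransferase joins serine to palmitoyl-CoA, KDSR reduces the product to dihydrosphingosine, a ceramide synthase adds a fatty acyl chain, and a desaturase sets the double bond that turns dihydroceramide into ceramide. The other source is salvage, in which sphingosine freed by breakdown of complex sphingolipids, much of it in lysosomes, is acylated again by the ceramide synthases. Apilimod inhibits PIKfyve, a lipid kinase of endosomes and lysosomes.

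A guide that becomes rarer can mark a knockout that cost the cells growth or survival, and death cannot be told apart from slower growth in such counts. The fall of a single guide does not by itself show a cost, since some guides that cut between genes also became rarer. The libraries held 25599416 (apilimod), 26276517 (DMSO) and 24695476 counts (initial population), and the 120 guides summed to 2872, 2900 and 3131 CPM (the usual scaling of counts to the library total) in that order. Their median was 398 counts in apilimod, 519.5 in DMSO and 526.5 in the initial population, and none was at 0 in any library. The yardstick was a set of 487 guides that cut between genes. Their log2 change from the initial population had its median at 0.22 in apilimod and 0.14 in DMSO. Their central 95% ran from -0.85 to 2.41 in apilimod and from -0.78 to 0.85 in DMSO.

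The gene score is the mean log2 change of a gene's guides from the initial population, with its SD over guides. In apilimod 6 of 12 ceramide genes had lower guides than the controls, where 29.0% of 2969 genes did, and 0 had higher ones, where 0.236% did. In DMSO 4 of 12 were lower, where 18.9% of all genes were, and 0 were higher, where 0.842% were (exact two-sided rank-sum test of guides, Benjamini-Hochberg adjusted over 2969 genes, p under 0.05). SPTLC1, SPTLC2, KDSR and CERS2 were lower in both arms, and CERS1 and CERS4 were lower in apilimod. The remaining 6 genes were called in neither arm. The median score of the 12 genes was -0.34 in apilimod and -0.17 in DMSO, against -0.04 and -0.03 over all genes. Both arms were set against the same initial library, so their calls are not independent, and the test compares these libraries rather than the conditions.

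SPTLC1 and SPTLC2 encode the paired subunits of serine palmitoyltransferase, the entry step. SPTLC1, the subunit common to all forms of the enzyme, lies on chromosome 9 from 92000087 to 92115413 on the minus strand (hg38). Its 9 scored guides together fell to 110 CPM in apilimod and 134 in DMSO, against 218 in the initial population. The score was -1.22 ± 0.73 in apilimod, with 9 of 9 guides below the control median, and -0.84 ± 0.71 in DMSO, with 8 of 9 below (SD, n = 9 guides). The adjusted p was 2.13e-07 in apilimod and 0.000164 in DMSO (exact rank-sum test, Benjamini-Hochberg).

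Single guides of SPTLC1 ranged widely. Guide sgSPTLC1_5 had 113 counts in apilimod, 366 in DMSO and 388 in the initial population. Guide sgSPTLC1_8 had 311, 704 and 992 in the same order of libraries. Both were rarer in apilimod than in DMSO. By contrast, sgSPTLC1_4 had 45 counts in apilimod, 45 in DMSO and 150 in the initial population, and sgSPTLC1_7 had 145, 125 and 390, a loss of like size in both arms. Guide sgSPTLC1_9 was rarer in DMSO, with 433 counts in apilimod, 240 in DMSO and 529 in the initial population. Of the 9 guides, 5 had a lower CPM in apilimod than in DMSO and 4 a higher one.

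SPTLC2, the catalytic subunit, lies on chromosome 14 from 77505997 to 77616637 on the minus strand. Its guides summed to 147 CPM in apilimod and 159 in DMSO, against 216 in the initial population. Every one of its 9 scored guides lay below the control median in each arm, with scores of -0.80 ± 0.83 in apilimod and -0.52 ± 0.34 in DMSO (SD, n = 9 guides). The adjusted p was 0.000116 in apilimod and 1.03e-05 in DMSO (exact rank-sum test, Benjamini-Hochberg). In each arm 3 of its guides lay below the central 95% of control guides, but only sgSPTLC2_5 did so in both. Guide sgSPTLC2_5 had 98 counts in apilimod, 271 in DMSO and 496 in the initial population, and sgSPTLC2_4 had 125, 333 and 394. The median over guides in apilimod was -0.35. At the other end, sgSPTLC2_2 had 240 counts in apilimod, 140 in DMSO and 199 at day 0. Its log2 change in apilimod, 0.217, was a rise that lay just below the control median of 0.222. Guide sgSPTLC2_8 kept 1439 counts in apilimod and 1502 in DMSO, against 1600 at day 0.

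SPTLC3, which can take the place of SPTLC2 in the enzyme, gave another picture. Its gene lies on chromosome 20 from 13008972 to 13169103 on the plus strand. Its 10 guides summed to 432 CPM in apilimod and 384 in DMSO, against 355 in the initial population, and scored 0.30 ± 0.34 in apilimod and 0.21 ± 0.38 in DMSO (SD, n = 10 guides). Neither value was called (adjusted p = 0.817 and 0.709, exact rank-sum test). The most abundant guide, sgSPTLC3_10, had 2480 counts in apilimod, 2660 in DMSO and 2584 in the initial population. Relative to the control guides the shift of SPTLC3 was 0.05 in apilimod, with a 95% interval of -0.24 to 0.33 that inverts the same test. The shift of SPTLC1 there was -1.66 (-2.0 to -1.04) and that of SPTLC2 -0.91 (-1.53 to -0.48), and neither interval overlaps that of SPTLC3. The difference between the genes was not itself tested, and such intervals cover the spread of guides within these libraries.

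KDSR, the 3-ketodihydrosphingosine reductase, had the lowest apilimod score of the 12 genes. It lies on chromosome 18 from 63327726 to 63367228 on the minus strand. Its 9 scored guides fell to 144 CPM in apilimod and 220 in DMSO, against 297 in the initial population. The score was -1.32 ± 0.86 in apilimod, with 9 of 9 guides below the control median, and -0.58 ± 0.52 in DMSO, with 8 of 9 below (SD, n = 9 guides). The adjusted p was 5.61e-07 in apilimod and 0.00113 in DMSO (exact rank-sum test, Benjamini-Hochberg). From the bottom, KDSR ranked 134 of 2969 genes in apilimod and 330 in DMSO.

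The loss of KDSR guides in apilimod was spread over most of the set. Guide sgKDSR_10 had 135 counts in apilimod, 479 in DMSO and 885 in the initial population. Guide sgKDSR_8 had 178, 357 and 809, and sgKDSR_5 had 688, 1673 and 1676. In 6 of 9 guides the library-scaled count was lowest in apilimod, intermediate in DMSO and highest at day 0. Among the other guides, sgKDSR_2 had 1047 counts in apilimod, 1152 in DMSO and 981 in the initial population, and sgKDSR_6 had 793, 550 and 1016.

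The ceramide synthases differ in the acyl chain they attach. CERS2, which prefers very-long-chain acyl-CoA, was lower than the control guides in both arms. Its gene lies on chromosome 1 from 150960583 to 150975003 on the minus strand. Its 10 guides fell to 121 CPM in apilimod and 172 in DMSO, against 255 in the initial population. The score was -1.15 ± 0.82 in apilimod, with 10 of 10 guides below the control median, and -0.65 ± 0.68 in DMSO, with 9 of 10 below (SD, n = 10 guides). The adjusted p was 5.99e-09 in apilimod, the lowest of the 12 genes, and 0.00128 in DMSO (exact rank-sum test, Benjamini-Hochberg).

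Among CERS2 guides, sgCERS2_5 had 89 counts in apilimod, 235 in DMSO and 512 in the initial population. Guide sgCERS2_2 had 213, 424 and 1161, and sgCERS2_8 had 219, 437 and 692. These 3 guides were the rarest relative to day 0 in apilimod, while in DMSO the rarest was sgCERS2_1, with 325 counts in apilimod, 186 in DMSO and 561 in the initial population. The mildest loss in apilimod was that of sgCERS2_3, with 552 counts there, 749 in DMSO and 648 in the initial population. All 10 guides had a lower CPM in apilimod than at day 0, and 7 of 10 did in DMSO.

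CERS1, which uses mainly stearoyl-CoA, and CERS4, which uses long-chain acyl-CoA, were lower in apilimod and were not called in DMSO. CERS1 scored -0.60 ± 0.90 in apilimod and -0.18 ± 0.65 in DMSO, and CERS4 scored -0.54 ± 0.74 and -0.15 ± 0.81 (SD, n = 10 guides each). Guides below the control median numbered 8 of 10 in apilimod and 7 of 10 in DMSO for CERS1, and 9 and 6 of 10 for CERS4. The adjusted p-values in apilimod were 0.00393 for CERS1 and 0.00242 for CERS4, and in DMSO 0.333 and 0.551 (exact rank-sum test, Benjamini-Hochberg). Guide sgCERS1_4 had 88 counts in apilimod, 285 in DMSO and 508 in the initial population. Guide sgCERS4_1 had 66 counts in apilimod, 218 in DMSO and 113 in the initial population, so its count in DMSO was the highest of the 3. Both genes are on chromosome 19, CERS1 from 18868545 to 18896727 (minus strand) and CERS4 from 8206736 to 8262421 (plus strand).

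CERS3, which makes ceramides of the longest chains in skin, and CERS5 and CERS6, which use palmitoyl-CoA, were called in neither arm. CERS3 scored 0.32 ± 0.74 in apilimod and 0.26 ± 0.58 in DMSO (SD, n = 10 guides). CERS5 scored 0.50 ± 0.64 and 0.16 ± 0.38 (SD, n = 9 guides), and CERS6 scored 0.24 ± 0.60 and 0.24 ± 0.33 (SD, n = 10 guides). Their adjusted p-values lay between 0.558 for CERS3 in DMSO and 0.981 for CERS5 in DMSO (exact rank-sum test, Benjamini-Hochberg). The 95% intervals of their shifts from the control guides in apilimod were -0.31 to 0.31 for CERS3, -0.22 to 0.64 for CERS5 and -0.35 to 0.40 for CERS6, so a loss of the size of CERS2, at -1.21 (-1.83 to -0.86), lay outside each of them. Their guides summed to a higher CPM in apilimod, at 327 against 298 in DMSO for CERS3, 340 against 294 for CERS5 and 412 against 375 for CERS6. Abundant guides weigh most in such sums. Guides with a lower CPM in apilimod than in DMSO numbered 6 of 10 for CERS3, 3 of 9 for CERS5 and 4 of 10 for CERS6. CERS3 lies on chromosome 15 from 100400395 to 100544995 (minus strand), CERS5 on chromosome 12 from 50129289 to 50167533 (minus strand) and CERS6 on chromosome 2 from 168456249 to 168775134 (plus strand).

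The desaturases that finish ceramide were called in neither arm. DEGS1, the main dihydroceramide desaturase, scored 0.15 ± 0.61 in apilimod and -0.04 ± 0.67 in DMSO (SD, n = 8 guides; adjusted p = 0.951 and 0.805, exact rank-sum test). DEGS2, which also hydroxylates dihydroceramide, scored -0.14 ± 0.36 in apilimod and -0.19 ± 0.41 in DMSO (SD, n = 8 guides; adjusted p = 0.0652 and 0.095, exact rank-sum test). For DEGS2, 7 of 8 guides lay below the control median in each arm. DEGS1 guides pointed in opposite directions: sgDEGS1_1 had 238 counts in apilimod, 73 in DMSO and 115 in the initial population, while sgDEGS1_3 had 212, 685 and 409. DEGS1 lies on chromosome 1 from 224175756 to 224193441 (plus strand) and DEGS2 on chromosome 14 from 100143957 to 100159645 (minus strand).

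At the level of single guides, 28 of 112 scored guides (25%) lay below the central 95% of control guides in apilimod, where 14.5% of 28042 gene-targeting guides did. In DMSO 23 of 112 (20.5%) did, where 13.5% of all did. SPTLC1, SPTLC2, KDSR and CERS2 held 21 of the 28 guides in apilimod and 16 of the 23 in DMSO, with 37 scored guides among them. These genes were grouped because they were called lower than the same control guides, so their large share follows from that choice. Above that range lay 0 of 112 guides in apilimod, where 0.282% of all did, and 4 in DMSO, where 3.62% did, shares near the background.

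The control guides themselves differed between the arms. Among guides that began with 100 counts or more but fewer than 200, the median log2 change of 20 control guides was 1.91 with apilimod and -0.06 with DMSO, that of 11 ceramide guides was 0.22 and 0.27, and that of all 2209 gene-targeting guides was 0.20 and -0.02. From 200 to under 400 counts, the apilimod medians were 0.65 for control guides and 0.06 for gene-targeting guides. From 400 to under 800 they were 0.45 and -0.03, and at 800 or more 0.15 and -0.07. The last range held 329 of the 487 control guides and 39 of the 112 ceramide guides, so initial abundance was not matched. The part of the gap between control and gene-targeting guides in the calls was not tested beyond the alternatives that follow. With control guides of at least 200 initial counts alone, the same 6 genes were called in apilimod and the same 4 in DMSO. That setting removed only the 20 control guides under 200 counts. It kept those from 200 to under 800, where the gap was also present, so it could not show the part of the gap in the calls. With the null drawn from all gene-targeting guides instead, only SPTLC1, KDSR and CERS2 stayed lower in apilimod and only SPTLC1 in DMSO. Their adjusted p-values were larger there, at 0.00262, 0.00174 and 0.00108 in apilimod and 0.0272 in DMSO (exact rank-sum test, Benjamini-Hochberg). The calls that ended with that null were those of SPTLC2 (adjusted p = 0.0764), CERS1 (0.282) and CERS4 (0.277) in apilimod and of SPTLC2 (0.0545), KDSR (0.102) and CERS2 (0.103) in DMSO, by the same exact rank-sum test.

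Setting apilimod against DMSO addresses which of these knockouts cost more when PIKfyve was inhibited. For it the scores of each arm were scaled so that control guides lay at 0 and a list of 30 nucleotide synthesis genes at a median of -1, and the difference was turned into a z score over all 2969 genes. None of the 12 ceramide genes was called, where 0.573% of all genes were lower and 0.202% higher (17 and 6 genes). At an unadjusted p under 0.05, 3 of the 12 were lower, namely KDSR, CERS2 and CERS4, and 0 higher, against 232 and 81 of 2969 genes (exact rank-sum test). The median z of the 12 was -0.43, against -0.02 over all genes, and 7 of 12 lay below that of all genes. Without the scaling 36 genes were lower and 1 higher, and KDSR was among the lower ones. With a list of N-glycan precursor genes at -1 there were 9 lower and 6 higher, none of them a ceramide gene.

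KDSR had the lowest z of the 12, -2.19, and ranked 33 of 2969 from the bottom. The unscaled log2 ratio of apilimod to DMSO was -0.74 ± 0.68 (SD, n = 9 guides), and 8 of 9 guides lay below the control median of the scaled difference. Its adjusted p was 0.0644 (exact rank-sum test, Benjamini-Hochberg), just above the threshold of 0.05, and ran from 0.00144 to 0.305 over the 10 alternatives that repeated the test, of which 5 called it lower. One of those left out the guide farthest from the gene's median log2 ratio, sgKDSR_6, and gave a z of -3.13. That guide's ratio, 0.56, was the highest of the gene, so the lower mean follows from leaving it out. On the scaled difference its shift from the control guides was -0.41 (95% interval -0.66 to -0.19), where 1 unit is the depletion of the nucleotide list.

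The ceramide synthases CERS2, CERS1 and CERS4 came next in order of z, at -1.35, -1.33 and -1.28. The log2 ratio of CERS2 was -0.50 ± 0.62, with 8 of 10 guides below the control median (adjusted p = 0.164, exact rank-sum test). That of CERS1 was -0.41 ± 0.86, with 6 of 10 below (adjusted p = 0.474), and that of CERS4 -0.39 ± 0.58, with 7 of 10 below (adjusted p = 0.457; SD, n = 10 guides each, exact rank-sum test). CERS2 was called lower in 2 of 10 alternatives, with guides of at least 300 initial counts (z -2.02) and without sgCERS2_1 (z -2.15). That guide was left out for its ratio, 0.84, the highest of the gene, so the lower mean follows from the choice.

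The guides of both serine palmitoyltransferase subunits were split in this comparison. For SPTLC1 the log2 ratio was -0.38 ± 0.89 and z was -0.85 (adjusted p = 0.731), and for SPTLC2 they were -0.28 ± 0.87 and -0.68 (adjusted p = 0.824; SD, n = 9 guides each, exact rank-sum test). Each had 5 of 9 guides below the control median. On the unscaled log2 ratio, 4 guides of SPTLC1 and 3 of SPTLC2 lay below the central 95% of control guides, which ran from -0.73 to 2.59. Over all members 26 of 112 guides (23.2%) lay below this range, where 10.6% of all gene-targeting guides did. Above it lay 0, where 0.67% of all did, a share near the background. The scaled shift of SPTLC1 was -0.29 (-0.56 to 0.24), an interval that holds the shift of KDSR as well as 0. For SPTLC3 z was 0.12 and the log2 ratio 0.09 ± 0.43 (SD, n = 10 guides).

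The other members had values near or above 0. The z of CERS5, at 1.01, was the highest, and its guides averaged a log2 ratio of 0.34 ± 0.49 (SD, n = 9 guides; adjusted p = 0.638, exact rank-sum test) with 6 of 9 above the control median. DEGS1 had a z of 0.65 and DEGS2 of 0.25, while CERS3 had -0.00351 and CERS6 -0.18. The ratio of DEGS1 varied most among the 12 genes, 0.20 ± 1.06 (SD, n = 8 guides), from -1.65 for sgDEGS1_3 to 1.73 for sgDEGS1_1.

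Guides that began below 100 counts were left out of these scores, and 8 ceramide guides did. Guide sgSPTLC1_3 had 54 counts in apilimod, 2 in DMSO and 2 in the initial population. Guide sgSPTLC2_6 had 260, 37 and 33, and sgDEGS1_8 had 57, 1 and 10. All 3 had more counts in apilimod than in either other library. Of the 8 guides 7 had a log2 change above 0 in apilimod and 4 in DMSO. The same was true of 63.0% of 1610 other gene-targeting guides under the minimum in apilimod and 47.7% in DMSO, and of 9 and 4 of 12 control guides. With no minimum the z of SPTLC1 became 0.44 and that of SPTLC2 0.15, and that of DEGS1 2.77, while KDSR stayed at -2.07 with an adjusted p of 0.024 (exact rank-sum test, Benjamini-Hochberg).

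Neighbouring steps were counted in the same fit. Over all 2969 genes, 29.0% were lower in apilimod, 18.9% were lower in DMSO and 0.842% higher there. Between the arms 0.573% of all genes were lower and 0.202% higher. In a list of palmitate synthesis and fatty acid activation, 7 of 10 genes were lower in apilimod and 4 in DMSO. FASN, the fatty acid synthase, SLC25A1, the mitochondrial citrate carrier, and ACACA, the acetyl-CoA carboxylase, were lower in apilimod than in DMSO (z of -6.52, -4.74 and -4.51). The lowest scores of that list were those of FASN (-1.83 ± 0.92, SD, n = 8 guides) and ACACA (-1.64 ± 0.65, SD, n = 7 guides) in apilimod and of ACLY, the ATP citrate lyase, in DMSO (-1.29 ± 0.58, SD, n = 10 guides). The DMSO calls other than ACLY were acyl-CoA synthetases, which activate fatty acids. In the elongation of acyl-CoA, 4 of 9 measured genes were lower in apilimod and 0 in DMSO. The lowest in apilimod were the 3-ketoacyl-CoA reductase HSD17B12 (-1.87 ± 2.45, SD, n = 7 guides) and the enoyl-CoA reductase TECR (-0.92 ± 1.11, SD, n = 10 guides). The list holds elongases of several chain lengths, so it is wider than the supply of very-long-chain acyl-CoA to CERS2. The elongase ELOVL1 was lower in apilimod than in DMSO (z -3.95) and was called higher than control guides in DMSO. In a list of serine synthesis, conversion and transport, 5 of 8 genes were lower in apilimod and 1 in DMSO. The transporter gene SLC1A5 was lowest in apilimod, at -1.06 ± 0.83, and was the gene called in DMSO, at -0.35 ± 0.52 (SD, n = 10 guides each). Of the synthesis genes, PHGDH was lower in apilimod, at -0.46 ± 0.99. PSAT1, at 0.46 ± 0.70, and PSPH, at 0.50 ± 0.77, were not called there (SD, n = 10 guides each).

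The steps after ceramide were counted likewise, where 29.0% of all genes were lower in apilimod and 18.9% in DMSO. Of 10 measured genes that turn ceramide into sphingomyelin, glycosphingolipids and ceramide phosphate, 0 were called in either arm or between the arms. Of 19 genes of ceramide release and sphingosine salvage, 3 were lower in apilimod, with SPHK2, a sphingosine kinase, at -1.03 ± 1.40 (SD, n = 9 guides) and SMPD3, a neutral sphingomyelinase, at -0.44 ± 0.49 (SD, n = 9 guides). Between the arms 0 of 19 were called, where 0.573% of all genes were lower and 0.202% higher, so 0 calls were near the background. Each of these calls used the exact rank-sum test with Benjamini-Hochberg adjustment over all genes, and the lists were not tested as sets. The small subunits of serine palmitoyltransferase and its ORMDL regulators were not analysed here.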

How the data were processed

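Integrated guides were amplified from genomic DNA and sequenced, with 1 library from each of 3 pools. The authors deposited unnormalised counts of reads for each guide. They were made by trimming reads to the guide with cutadapt 4.1, aligning to the library's guides with Bowtie2 2.4.5 and counting with MAGeCK 0.5.9.5, as the methods and the submitters' processing notes state. Counts carry no molecular identifiers, so PCR copies are not independent cells. The table of the whole series and the library files held the same counts (0 differences).

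Guides under 100 initial counts (1630 of 30197) and genes with fewer than 6 guides were removed, which left 28042 guides of 2969 genes and 487 control guides. A pseudocount of 1 was added, counts were divided by library totals, and log2 changes were averaged per gene, as in the study's methods. For apilimod against DMSO, each arm was scaled to the control median (0) and to the median score of 30 of 32 listed nucleotide synthesis genes (-1, at -1.50 in apilimod and -1.32 in DMSO on the log2 scale), which take the place of the core essential genes of the methods, as the intergenic guides do of non-targeting ones. The guides of a gene were ranked among the control guides and tested exactly (rank-sum, two-sided), with p-values adjusted by Benjamini-Hochberg over all genes and called under 0.05, in Python 3.11.15 with NumPy 2.4.6, pandas 2.3.3 and SciPy 1.17.1. Intervals at 95% invert this test. The test was tested on simulated data. Every gene matched by the name rule is named. Of neighbouring lists, genes called between the arms and at most 2 called genes of lowest score per list and arm are named. The higher call of ELOVL1 in DMSO and the serine synthesis genes were chosen after their values were seen. The DMSO result of the salvage list is not reported here. Members and lists were chosen with earlier results of these data known. Gene positions are those of GENCODE 44 in hg38. Models with a dispersion estimate (edgeR, DESeq2) were not run, since 1 library per group leaves no residual degrees of freedom.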

Additional observations from a re-analysis of the deposited data

How the results depend on the processing

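With all gene-targeting guides as the null, the count of ceramide genes lower than that null was 3 in apilimod and 1 in DMSO, against 6 and 4 as reported. Over all genes it was 225 in apilimod and 222 in DMSO, against 862 and 560, with 82 and 50 higher, against 7 and 25. The other 7 alternatives gave 6 or 7 ceramide genes in apilimod and 4 or 5 in DMSO, and the gene added with a minimum of 30 initial counts was DEGS2 in both arms. For apilimod against DMSO, where 0 were called, the count was 1 with no minimum of initial counts, 1 with a pseudocount of 10 and 1 without scaling (KDSR each time), and 2 with a minimum of 300 initial counts and 2 without the farthest guide of each gene (KDSR and CERS2). Over all genes, where 17 were lower, these last 3 settings gave 36, 32 and 45, the all-guide null gave 7 and the N-glycan reference 9. Higher in that comparison were 6 genes as reported, 2 with a pseudocount of 10, 1 without scaling and 0 at a minimum of 300. In apilimod, 12 genes were higher with no minimum, 13 at a minimum of 300 and 14 with control guides of at least 200 counts, against 7. The cause of these moves was not tested. No called ceramide gene changed direction under any alternative run. No paired analysis was possible because each group had 1 library. Depth did not bring any ceramide guide to 0 counts, but the lack of replicate libraries leaves the spread between cultures unmeasured.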
